A study of Mus musculus with 2 samples.

Results

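The genes described here are 10 mouse CC chemokines, Ccl2, Ccl3, Ccl4, Ccl6, Ccl7, Ccl8, Ccl9, Ccl11, Ccl12 and Ccl24, out of 55416 genes counted. Both deposited libraries list all 10. They were chosen by their UMI counts in these 2 libraries, so the levels and ratios below are a description and carry no test. The data were 2 single-cell 5' RNA libraries of cells taken with CD45 magnetic beads after enzymatic digestion, 1 from gastrocnemius muscle and 1 from lung. The labels call the animals TB mice and give the genotype of both libraries as the CAC mouse model. What either short name stands for, the age and number of the mice and any treatment are not given there. With 1 library per tissue there was no replicate, no test between tissues was possible, and no p-value is given. Intervals are exact 95% intervals that hold counting error only, and they do not hold the spread between cells or mice.

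CC chemokines are small secreted proteins that draw leukocytes by binding G protein-coupled receptors. Ccl2, Ccl7 and Ccl12 act through Ccr2 and recruit monocytes. Ccl3 acts through Ccr1 among others, and Ccl4 is its close relative. Ccl6 and Ccl9 are rodent chemokines that bind Ccr1. Mouse Ccl8 binds Ccr8, and the eotaxins Ccl11 and Ccl24 bind Ccr3, the receptor of eosinophils.

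The muscle library held 14056163 unique molecular identifiers (UMIs, counted RNA molecules) in 5547 barcodes and the lung library 34751225 in 8481. Barcodes with at least 200 genes and at most 10% mitochondrial UMIs numbered 2243 in muscle and 8194 in lung. After removal of likely doublets 2143 and 7638 cells were kept, with a median of 3054 and 2136.5 UMIs. Of all barcodes 59.5% in muscle and 3.22% in lung lay over the mitochondrial limit. The 2 libraries shared 64 barcodes, of which 21 were kept in both. Ptprc, which encodes CD45, was at 637.7 to 958.3 CPM (a gene's count scaled to the total of its class, explained below) in neutrophil-like cells but at 1.32 CPM in the 1184 muscle endothelial-like cells, 4.29 CPM in muscle fibroblast-like cells and 4.66 CPM in pericyte-like or smooth muscle-like cells. The muscle library thus held many cells with almost none of the transcript of the sorted marker, and their chemokines are described too.

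Cells were clustered without any gene whose name begins with Ccl, and a class name such as neutrophil-like is a likeness to a marker list. Levels are CPM, the summed UMIs of a gene over the summed UMIs of all genes in a class. Beside shares of cells with a UMI, the lung B-like class (712 cells, median 2015.5 UMIs) serves as a stand-in for free RNA. Whether its chemokine UMIs were free RNA was not tested, and it gives no such level for muscle. In it Ccl6 was seen in 47.1% of cells at 287.6 CPM, Ccl3 in 9.13% at 48.0 CPM, Ccl4 in 6.88% at 50.04 CPM and Ccl9 in 7.02% at 30.3 CPM. The other members were at 21.2 CPM or less there.

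**Figure D1:**
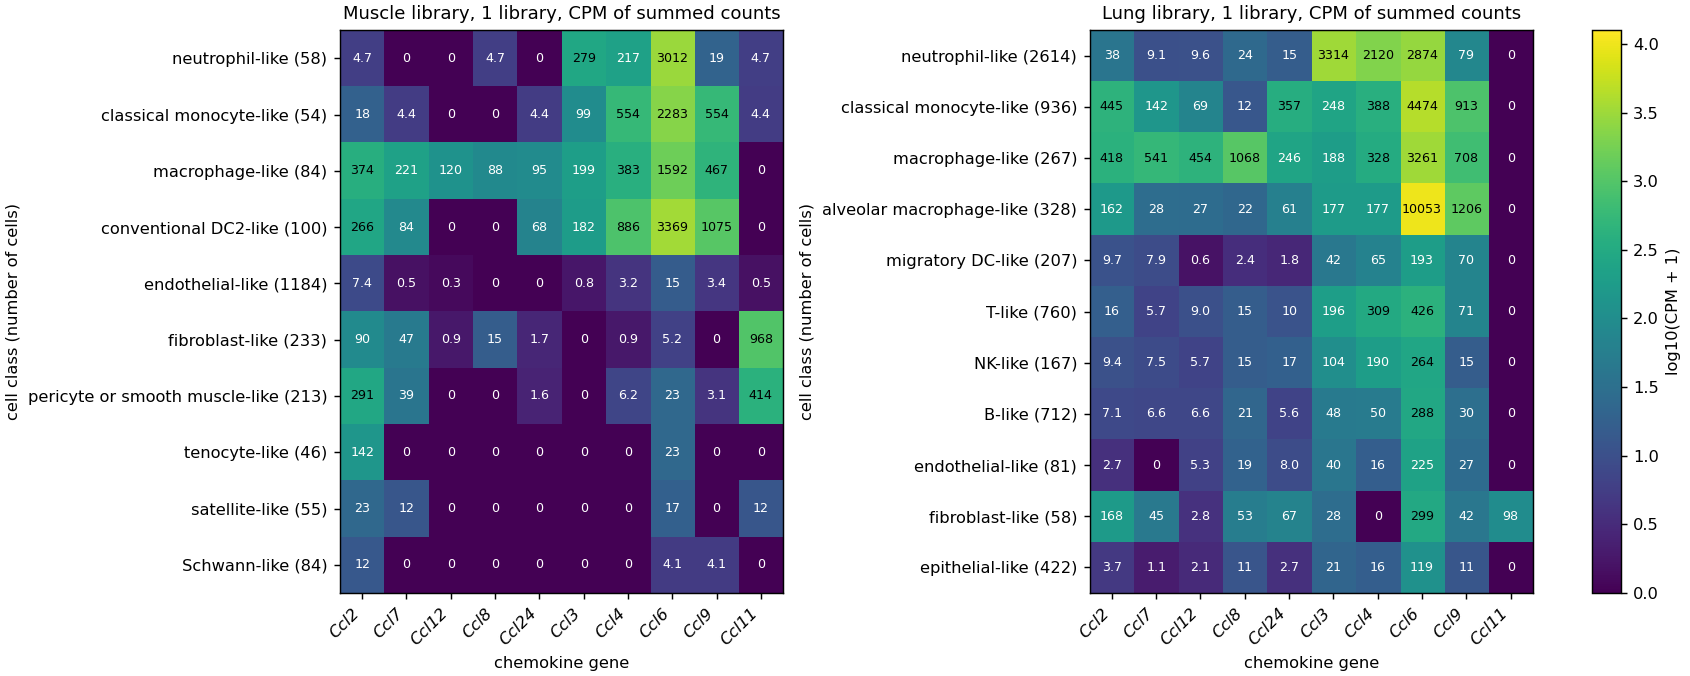
Level of each chemokine (columns, CPM printed in the cell, colour on a log10 scale) in each named cell class with at least 20 cells (rows) of the muscle and lung libraries. Neutrophil-like cells of lung lead for Ccl3 (3314 CPM) and Ccl4 (2120 CPM), alveolar macrophage-like cells for Ccl6 (10053 CPM), and muscle fibroblast-like cells for Ccl11 (968 CPM).

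Most Ccl3 in lung lay in neutrophil-like cells. Lung neutrophil-like cells (2614 cells, 34.2% of the lung cells) held 84.2% [83.7, 84.6] of all lung Ccl3 UMIs, at 3314 CPM [3268, 3361]. The next named class, classical monocyte-like cells, reached 247.7 CPM, and the unnamed shallow cluster C2 (1071 lung cells, median 752 UMIs) 307.1 CPM. A Ccl3 UMI was found in 60.7% of lung neutrophil-like cells, against 9.13% of B-like cells of about the same depth (median 1993.5 and 2015.5 UMIs).

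The 4 lung neutrophil-like clusters differed in Ccl3. Cluster C6 (575 lung cells, led by Rab15 and Mreg) stood highest with 7462 CPM [7291, 7637] and a UMI in 79.8% of cells. Cluster C1 (1078 lung cells, led by Retnlg and Asprv1) had 2736 CPM [2675, 2799], and cluster C4 (739 lung cells, led by Siglecf and Mmp9) had 2725 CPM [2645, 2807]. These 2 could not be separated by counting error. Cluster C13 (222 lung cells, led by Gm37347 and Abca13) was lowest with 1042 CPM [964.9, 1125]. The name of C6 rested on 3 neutrophil markers with none among its top 10 genes, and with 2 of 13 other settings of the filters and clustering most of its cells lost the name (19.1% and 12.6% kept it). Stress genes moved with it: Hspa1a was at 730.3 CPM in lung C6 and 55.6 CPM in lung C1, and Atf3 at 517.4 and 161.3 CPM. Their part in the Ccl3 level was not tested.

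Ccl4, the close relative of Ccl3, followed the same order in lung with lower values. C6 had 3425 CPM [3309, 3544], C1 1996 CPM [1944, 2050], C4 1996 CPM [1928, 2066] and C13 998.8 CPM [922.9, 1079]. Fewer cells carried it: 34.7% of lung neutrophil-like cells had a Ccl4 UMI. Its UMIs were concentrated, with the top 10% of neutrophil-like cells holding 82.1% of them and a single cell holding 332.

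**Figure D2:**
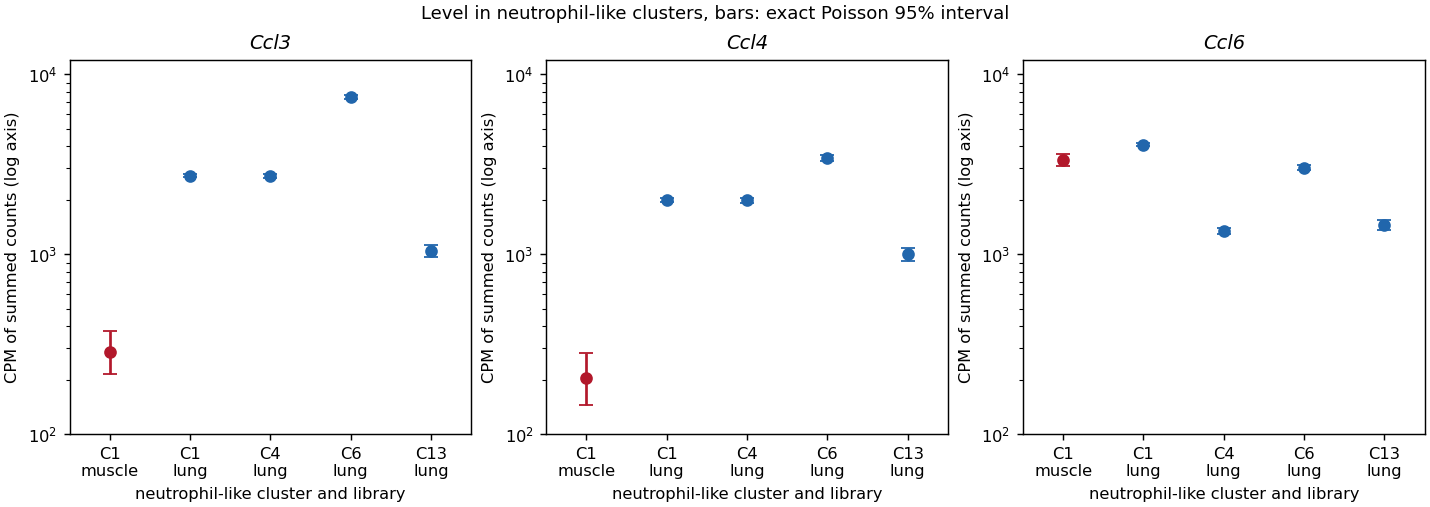
CPM (log axis) of Ccl3, Ccl4 and Ccl6 in the neutrophil-like clusters with at least 20 cells per library, red for muscle and blue for lung, with exact Poisson 95% intervals. C6 of lung is highest for Ccl3 (7462 CPM) and Ccl4 (3425 CPM), C1 of muscle lies below every lung cluster for both, and for Ccl6 C1 leads in lung (4054 CPM).

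Muscle neutrophil-like cells were few (58, of which 48 in C1) and had little of either gene. Ccl3 stood at 278.5 CPM [212.0, 359.3] from 59 UMIs and Ccl4 at 217.1 CPM [159.0, 289.6] from 46 UMIs. Neither interval comes near the lung value. A size rule marks a gene as apart between libraries: a 4-fold ratio or more, a lower bound beyond 2-fold, and no fewer than 30 UMIs on the higher side. In the neutrophil-like class 9 of the 10 members had the 10 UMIs needed for a ratio, and 2 of them, Ccl3 and Ccl4, were called higher in lung, where 1.62% of 11203 genes were called that way and 0.42% higher in muscle. The log2 ratio of muscle over lung was -3.57 [-3.97, -3.20] for Ccl3 and -3.29 [-3.74, -2.87] for Ccl4. Since different clusters made up the class in the 2 libraries, the ratio was also taken within C1, the one neutrophil-like cluster with at least 20 cells of each library: it was -3.25 [-3.67, -2.86] for Ccl3 and -3.27 [-3.77, -2.81] for Ccl4 (of 8692 genes 1.39% called higher in lung and 0.426% in muscle).

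In muscle most Ccl4 lay outside neutrophil-like cells, which held 3.09% of its UMIs there. The DC2-like cells of muscle (100 cells, led by Lyz1, Retnla and Cd209a) carried 63.4% [60.9, 65.9] of the muscle Ccl4 UMIs at 886.4 CPM [830.8, 944.7]. Of these cells 34 had a UMI, with a median of 13.5 UMIs in them. The name DC2-like rested on Cd209a, Mgl2, Clec10a and Cd209d. Flt3 (9.37 CPM) and Zbtb46 (25.3 CPM), defining genes of conventional dendritic cells, were no higher there than in all other cells (14.7 and 26.7 CPM), so the cells are called here by their leading genes as well. Muscle classical monocyte-like cells followed with 553.8 CPM [487.7, 626.4], and muscle macrophage-like cells had 383.3 CPM. In lung, T-like cells had 309.2 CPM of Ccl4, of which the top 10% of cells held 99.3%.

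Ccl6 was the most abundant member in both libraries, with 87841 UMIs in lung and 6294 in muscle. In lung it peaked in alveolar macrophage-like cells, named after the resident phagocytes of the air spaces, at 10053 CPM [9929, 10178]. A UMI was seen in 98.2% of those cells. The name rested on 6 raised markers, with the macrophage list as the second match. Its marker Siglecf was hardly higher there (25.9 CPM) than in all other cells (25.1 CPM). Lung classical monocyte-like cells had 4474 CPM, macrophage-like cells 3261 CPM and neutrophil-like cells 2874 CPM. Lung monocyte-like cells were more numerous and held the largest share of the UMIs, 35.9% against 28.7% in alveolar macrophage-like cells and 19.5% in neutrophil-like cells.

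Within neutrophils Ccl6 took another order than Ccl3. Lung C1 had 4054 CPM [3979, 4130], C6 3035 CPM [2926, 3147], C13 1453 CPM and C4 1350 CPM [1294, 1408]. C1 and C4, whose intervals overlapped for Ccl3, were thus apart in Ccl6. Muscle C1 had 3341 CPM [3082, 3616]. Over the whole neutrophil-like class the muscle value of 3012 CPM and the lung value of 2874 CPM differed by a log2 ratio of 0.07 [-0.05, 0.18], so here the libraries were close in Ccl6 while they were far apart in Ccl3 and Ccl4.

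To separate the phagocytes further, 2001 monocyte-like, macrophage-like and dendritic-like cells were clustered again into 17 subsets, named P1 to P17 and known by their leading genes. This was chosen after the data were seen. Ccl6 was highest in P8 (129 lung cells led by Ear6 and Ear1, alveolar macrophage genes) at 10548 CPM [10375, 10723] and was seen in all 129. P7 (147 shallow lung cells, median 1143 UMIs, with Igf1 and Atp6v0d2 among its leading genes) had 9320 CPM, and P3 (177 lung cells led by Mfge8 and Gpnmb, genes of lipid-handling macrophages) had 8953 CPM. The dendritic-like subsets of lung were P11 (plasmacytoid-like), P13 and P15 (migratory-like) and P14 (conventional DC1-like). They ranged from 196.1 to 381.1 CPM beside 287.6 CPM in B-like cells. In P4, which was mainly DC2-like over both libraries but mainly monocyte-like in its 36 lung cells, those lung cells had 1927 CPM. The 12 lung DC2-like cells had 640.7 CPM [495.5, 815.2].

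Ccl9 went with Ccl6 but at a lower level. It peaked in lung P3 at 1600 CPM [1539, 1664], ahead of P10 at 1270 CPM and P8 at 1172 CPM. In muscle it was highest in P4 (133 muscle cells led by Retnla and Lyz1) at 1057 CPM [1001, 1115], and the muscle DC2-like class held 67.4% of the UMIs. Of the 169 P4 cells 102 were DC2-like. In the second clustering P4 matched the myofibre markers best (3 of them raised, mean log2 fold 1.60) and the DC2 markers next. Neutrophil-like cells had little, 78.7 CPM in lung and 18.9 CPM in muscle, so that Ccl9 and Ccl6 parted in neutrophils. The upstream sequences of the 2 genes, from RefSeq on assembly GRCm38.p6, are shown because the genes neighbour each other and share their main sources. Each runs 5' to 3' over the 250 bases before the annotated start on the minus strand of chromosome 11, at chr11:83593088-83593337 for Ccl6 and chr11:83578637-83578886 for Ccl9. Capitals mark every run of at least 10 bases found in both.
Ccl6: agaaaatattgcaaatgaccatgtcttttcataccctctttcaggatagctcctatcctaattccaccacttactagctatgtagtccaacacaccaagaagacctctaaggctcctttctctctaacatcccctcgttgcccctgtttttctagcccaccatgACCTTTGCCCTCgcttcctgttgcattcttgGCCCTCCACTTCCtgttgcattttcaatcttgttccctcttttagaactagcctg
Ccl9: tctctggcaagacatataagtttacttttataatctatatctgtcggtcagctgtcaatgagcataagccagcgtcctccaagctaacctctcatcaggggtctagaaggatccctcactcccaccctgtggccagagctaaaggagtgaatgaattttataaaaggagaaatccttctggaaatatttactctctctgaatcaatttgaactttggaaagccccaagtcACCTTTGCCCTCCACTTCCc
The longest shared run was 13 bases. None of the other pairings of the 5 members found in that table shared a run of 10 bases. The letters TGANTCA, a loose form of the AP-1 motif with any base at N, were searched on both strands. They were found in Ccl9 as TGAATCA at position -53 from the start and not in the other members of that table. Of 32851 promoter windows of 300 bases 7.81% hold these letters. Whether AP-1 binds there was not tested.

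Among the Ccr2 ligands, Ccl2 was found in phagocytes and in stromal cells. In lung it stood at 444.9 CPM [429.5, 460.8] in classical monocyte-like and 417.6 CPM [389.8, 446.9] in macrophage-like cells, whose intervals overlap. In muscle macrophage-like cells had 374.2 CPM [324.7, 429.1], pericyte-like or smooth muscle-like cells 290.8 CPM [250.6, 335.6] and DC2-like cells 266.1 CPM. Muscle tenocyte-like cells (46 cells) had 141.8 CPM and muscle fibroblast-like cells 90.1 CPM. Ccl2 in the pericyte-like class came from 14 of 213 cells, of which 1 held 70 of the 187 UMIs. Endothelial-like cells had 7.39 CPM in muscle and 2.65 CPM in lung, and most of the muscle value came from cluster C17 (led by Plvap), with 26 UMIs in 3 cells.

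By subset, lung Ccl2 was highest in P10 (90 lung cells led by Saa3, Slpi, Cxcl1 and Il6) at 997.1 CPM [925.0, 1073], then in P6 at 821.6 CPM [756.6, 890.7], P1 at 647.4 CPM and P2 at 518.9 CPM. P6 (105 lung and 50 muscle cells led by Gas6, Lyve1 and Cd163) held genes of resident macrophages, and Mrc1 was at 2728 CPM in its lung cells and 1636 CPM in its muscle cells. P1 was led by Gm9733 and Plac8 and had the monocyte gene Ly6c2 among its leading genes. P2 (262 lung cells) was led by Pgf and Vegfa. In muscle P6 led with 598.3 CPM [508.6, 699.2]. P10 was called monocyte-like in the class names, but in 7 of 13 other settings fewer than 10% of its cells were. In the second clustering it matched the neutrophil markers best (4 of them raised, mean log2 fold 1.10) and the monocyte markers next, so it is kept apart by its leading genes.

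**Figure D3:**
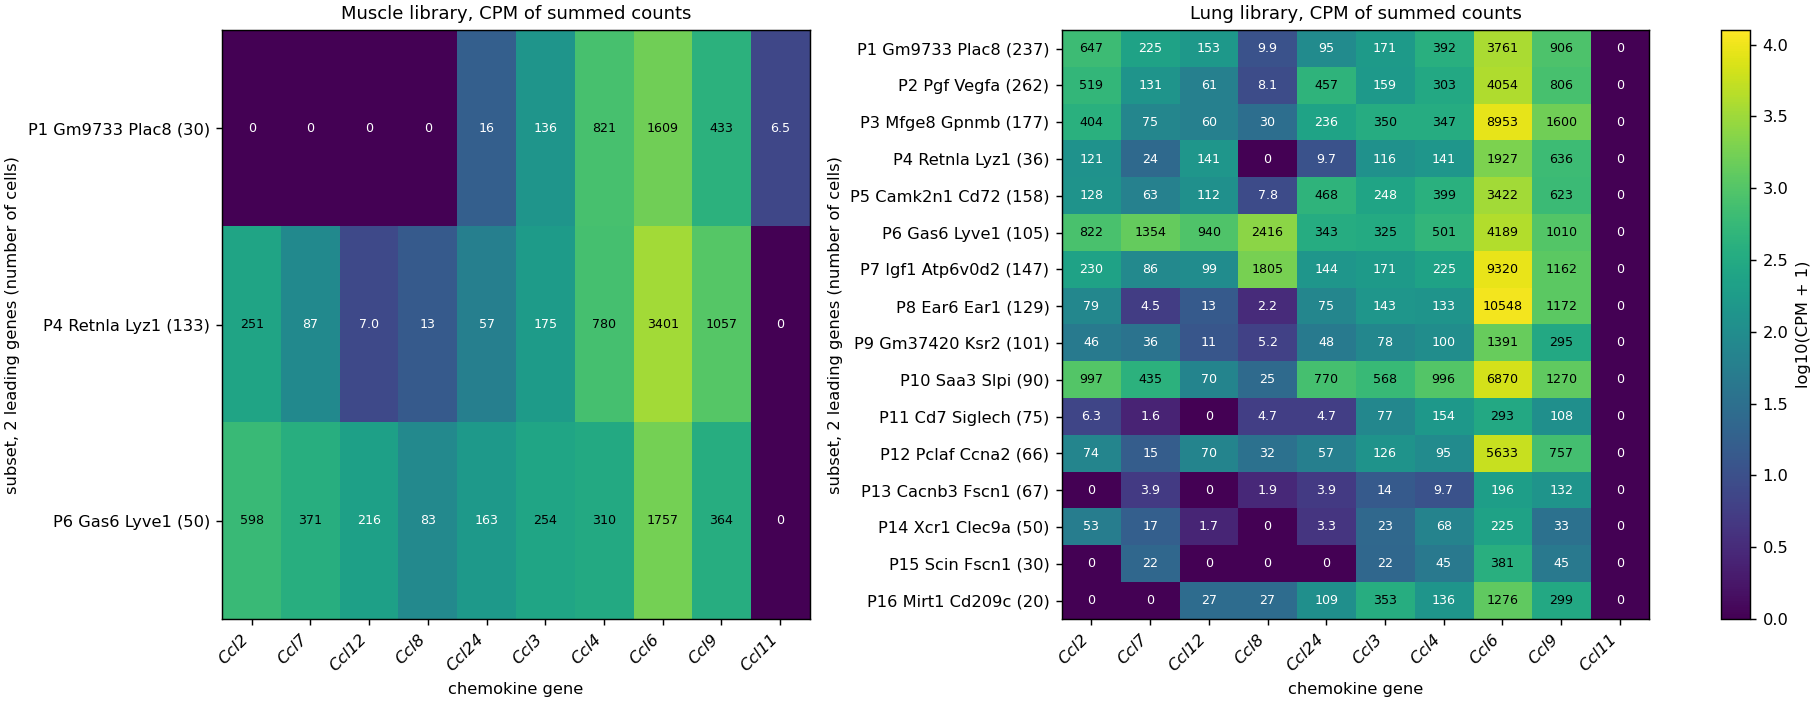
Level of each chemokine (columns, CPM printed in the cell, colour on a log10 scale) in the phagocyte subsets with at least 20 cells (rows, with 2 leading genes that are not chemokines) of the muscle and lung libraries. In lung P6 leads for Ccl7 (1354 CPM), Ccl12 (940 CPM) and Ccl8 (2416 CPM), P10 for Ccl2 (997 CPM) and Ccl24 (770 CPM), and P8 for Ccl6 (10548 CPM).

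Ccl7 and Ccl12 were narrower than Ccl2. Lung P6 had 1354 CPM [1271, 1442] of Ccl7 with a UMI in 65.7% of cells, and 940.1 CPM [870.5, 1014] of Ccl12 in 65.7% of cells. The B-like class had 1.83% and 1.69%. The next subset for Ccl7 was P10 at 435.2 CPM, and for Ccl12 it was P1 at 153.4 CPM. In muscle P6 again led for both, with 371.1 CPM [301.3, 452.2] of Ccl7 and 215.8 CPM [163.5, 279.6] of Ccl12. Muscle macrophage-like cells held 66 of the 68 Ccl12 UMIs of that library. In lung P4 the Ccl12 value of 140.8 CPM came almost whole from 1 cell with 28 of 29 UMIs.

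Ccl8 in lung lay chiefly in macrophage-like cells. P6 had 2416 CPM [2303, 2532] and P7 had 1805 CPM [1633, 1991], while P8, P1, P2 and P10 lay between 2.23 and 25.4 CPM, beside 21.2 CPM in B-like cells. The unnamed cluster C2 had 167.6 CPM. A few cells carried much of it: 1 cell held 249 of 1732 UMIs in P6 and 1 held 145 of 401 in P7. P7 was mixed, with 89 of its 148 cells alveolar macrophage-like, while that whole class held only 56 lung Ccl8 UMIs. The Ccl6 and Ccl8 of P7 thus need not lie in the same cells. The macrophage-like class as a whole held 77.2% of lung Ccl8. The levels of this class moved with the settings: the 1068 CPM of lung Ccl8 ran from 184.6 to 3370 CPM over 14 settings, Ccl7 (540.7 CPM) from 188.9 to 1655 CPM and Ccl12 (454.1 CPM) from 128.5 to 1071 CPM. Muscle Ccl2 there (374.2 CPM) ran from 121.2 to 697.4 CPM. In muscle P6 reached 83.3 CPM [52.2, 126.1] from 22 UMIs, and fibroblast-like cells had 15.5 CPM from 18 UMIs.

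Across cell groups the level of Ccl8 was most like that of Ccl12. Over 33 cluster and library units of at least 30 cells, Ccl12 was the gene most like Ccl8 among 12869 genes (Pearson r of log2(CPM + 10) 0.84), while Ccl8 ranked 5 among the genes most like Ccl12. Their upstream sequences are shown for that reason, in the same form, from the plus strand at chr11:82101595-82101844 for Ccl12 and chr11:82114935-82115184 for Ccl8. Capitals mark the TATA letters TATAAA.
Ccl12: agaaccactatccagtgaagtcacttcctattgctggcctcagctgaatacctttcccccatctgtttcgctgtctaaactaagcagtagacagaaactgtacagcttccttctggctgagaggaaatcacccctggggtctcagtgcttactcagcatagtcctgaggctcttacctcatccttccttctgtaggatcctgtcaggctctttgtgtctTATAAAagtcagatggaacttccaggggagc
Ccl8: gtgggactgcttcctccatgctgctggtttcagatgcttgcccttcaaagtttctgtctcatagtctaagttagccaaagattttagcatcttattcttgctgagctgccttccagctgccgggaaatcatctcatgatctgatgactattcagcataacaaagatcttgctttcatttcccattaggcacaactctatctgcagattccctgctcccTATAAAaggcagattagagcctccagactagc
TATAAA lay at -31 in Ccl12, at -32 in Ccl8 and, further from the start, at -92 in Ccl9, where the letters were also found on the other strand at -94 and -224, and 13.6% of all promoters in the table hold these letters on either strand. The 2 sequences shared no run of 10 bases, and their aligned identity of 65.2% was within the 56.3% to 67.0% of all pairings of the 5 members in the table. Searched on both strands, the PU.1 letters GAGGAAGT (3.20% of promoters), the C/EBP letters TTGCNNAA (10.8%) and the STAT letters TTCNNNGAA (8.30%) were in none of the 5. A fixed form of the NF-kB motif, 10 bases long (0.411% of promoters), was in none of them either. Other forms of the NF-kB motif were not searched, so sites with other letters could have been missed. The 5 members found in the table were Ccl3, Ccl6, Ccl8, Ccl9 and Ccl12.

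Ccl24, eotaxin-2, lay mainly in lung phagocytes. P10 had 770.4 CPM [707.2, 837.7] with a UMI in 45 of 90 cells, against 1.40% of B-like cells at 5.56 CPM. P5 (158 lung cells led by Camk2n1 and Cd72, with C1qa among its leading genes) had 467.8 CPM [434.2, 503.2] and P2 456.9 CPM [427.6, 487.6], which overlap. P6 had 343.1 CPM in lung, of which 1 cell held 144 of 246 UMIs, and 162.8 CPM in muscle. P8, the alveolar macrophage-like subset, had 75.0 CPM.

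Ccl11, eotaxin-1, lay in stromal cells. In muscle it was at 967.5 CPM [911.9, 1026] in fibroblast-like and 413.6 CPM [365.4, 466.4] in pericyte-like or smooth muscle-like cells, which held 80.5% and 19.0% of the 1400 UMIs. Fibroblast cluster C18 (132 muscle cells) had 1317 CPM [1241, 1397] and a UMI in 74.2% of cells, whereas the second fibroblast cluster C23 (101 muscle cells, led by C7 and Itgbl1) had 52.8 CPM [30.8, 84.5] and a UMI in 10.9%. In pericyte-like cells 10.8% had a UMI and 1 cell held 71 of 266. In lung Ccl11 was seen in 4 cells, all fibroblast-like, with 35 UMIs, of which 29 in 1 cell. Lung macrophage-like cells had 0 UMIs, which allows up to 1.50045 CPM (3 UMIs).

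Set side by side, the libraries were far apart for Ccl2, Ccl7, Ccl12 and Ccl24 in monocyte-like cells. In the classical monocyte-like class (54 muscle and 936 lung cells, all in cluster C3) 9 members had enough UMIs and 4 were called higher in lung, Ccl2, Ccl7, Ccl12 and Ccl24, where 1.14% of 11966 genes were (0.125% higher in muscle). Muscle had 17.5 CPM of Ccl2 against 444.9 CPM for lung, a log2 ratio of -4.67 [-5.88, -3.69]. Ccl7 was at 4.38 and 141.6 CPM (-5.01 [-8.06, -3.16]), and Ccl24 at 4.38 and 356.6 CPM (-6.35 [-9.39, -4.49]), each from 2 muscle UMIs. Ccl12 had 0 UMIs in muscle and 69.4 CPM in lung, at least 10.6-fold higher against a floor of 3 UMIs over the muscle class. The name of this class is weak in lung, where its monocyte markers Ly6c2 (54.6 CPM) and Hp (108.3 CPM) were no higher than in all other cells (55.8 and 138.8 CPM), although Vcan was (231.0 against 35.5 CPM). In muscle Ly6c2 was at 181.7 CPM and Hp at 361.2 CPM. The class was led by Dcstamp, Ccl24, Nrg1 and Arg1, and only 8 of 14 settings gave a lung value for it. Ccl4 went the other way, 553.8 CPM in muscle and 387.8 CPM in lung (0.51 [0.32, 0.70]), but was not called apart.

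The class mixed subsets in lung, so the values were also taken within P1, the monocyte subset of both libraries (30 muscle and 237 lung cells). Muscle P1 had 0 UMIs of Ccl2, Ccl7 and Ccl12. Lung P1 had 647.4, 225.2 and 153.4 CPM, at least 66.8-fold, 23.2-fold and 15.8-fold higher. Ccl24 was at 16.2 and 95 CPM (-2.56 [-4.20, -1.30]). These 4 were called higher in lung, where 0.39% of 8711 genes were (0.126% higher in muscle). The median depth of P1 was 8571 UMIs in muscle and 5645 in lung. The part of depth in these values was not tested. Muscle P1 cells held Ccl4, Ccl6 and Ccl9 at 820.9, 1609 and 433.1 CPM with no detected Ccl2.

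**Figure D4:**
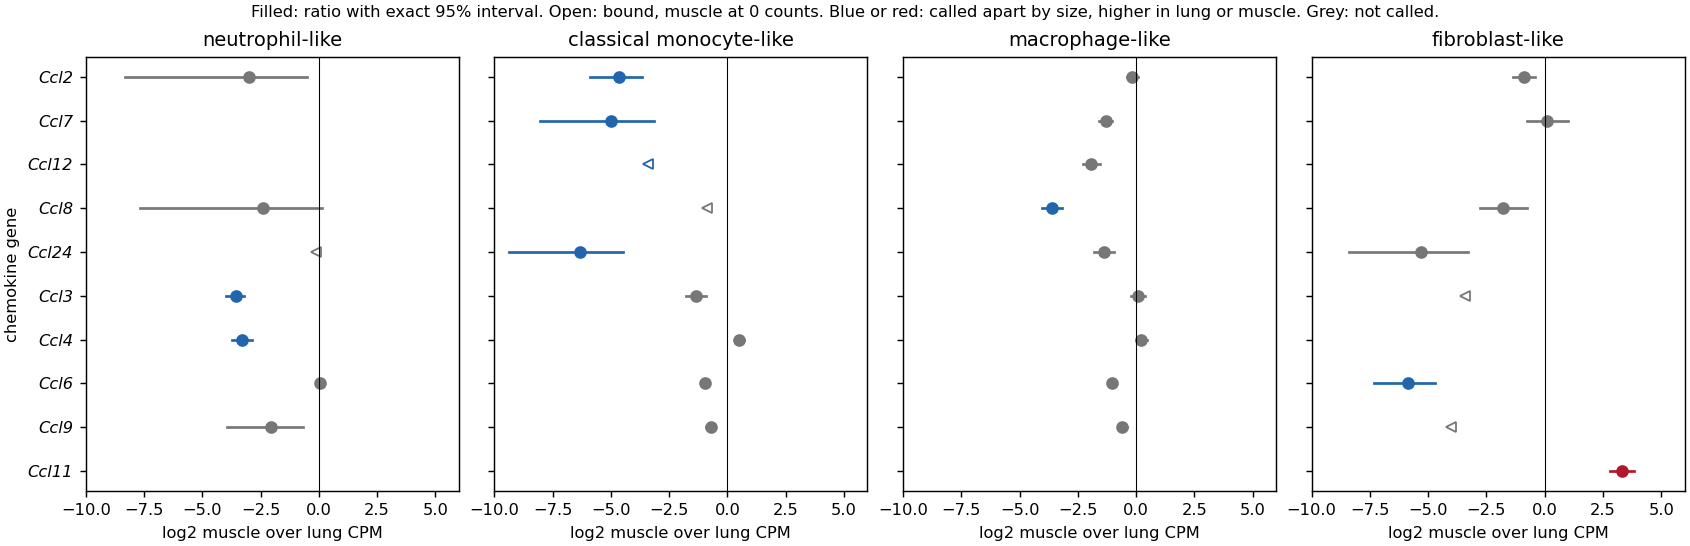
Log2 ratio of muscle over lung CPM of each chemokine with a usable ratio (rows) in 4 classes, with exact 95% intervals cut at -10. Open triangles are bounds where muscle had 0 UMIs, blue and red mark genes called apart by size, and grey the rest. The Ccr2 ligands and Ccl24 lie far to the lung side in monocyte-like cells (Ccl2 -4.67), Ccl3 and Ccl4 in neutrophil-like cells (-3.57 and -3.29), and Ccl11 to the muscle side in fibroblast-like cells (3.30).

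In macrophage-like cells (84 muscle and 267 lung cells) 9 members were measured and Ccl8 alone was called apart, 87.6 CPM in muscle and 1068 CPM in lung (-3.61 [-4.05, -3.20], with 1.4% of 10572 genes called higher in lung and 0.463% in muscle). That call was lost in 2 of 18 other settings, over which the ratio ran from -4.96 to -1.55. Ccl2 (-0.16 [-0.39, 0.06]), Ccl3 (0.08 [-0.24, 0.39]) and Ccl4 (0.23 [0.00, 0.45]) had intervals that held or touched 0. Over 18 other settings, though, the Ccl2 ratio ran from -1.99 to 1.72, with no call in any. Within P6 Ccl8 (-4.86 [-5.54, -4.25]) and Ccl12 (-2.12 [-2.54, -1.73]) were called higher in lung, where 0.933% of 8148 genes were (0.368% higher in muscle). In P4 Ccl4 was called higher in muscle, at 780.3 against 140.8 CPM (2.47 [1.94, 3.06], 0.495% of 8487 genes, with 0.259% higher in lung). P4 was mainly DC2-like over both libraries but mainly monocyte-like in its 36 lung cells. Its ratio therefore sets unlike cells side by side. In macrophage-like cells Ccl7 was -1.29 and Ccl12 -1.91, and both turned to the muscle side (0.83 and 0.24) when each library was clustered alone.

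In fibroblast-like cells (233 muscle and 58 lung cells) 8 members were measured. Ccl11 was called higher in muscle, 967.5 against 98.0 CPM (3.30 [2.82, 3.83], where 4.76% of 10588 genes were), and was 13.3-fold higher within C18 (of 9711 genes 3.84% called higher in muscle and 3.11% in lung). Ccl6 was called higher in lung (5.15 against 299.5 CPM, where 1.94% were), but the lung value is at the B-like level of 287.6 CPM. Endothelial-like cells had 5 members measured and Ccl6 called higher in lung, 14.5 against 225.5 CPM (-3.96 [-4.47, -3.45], where 1.07% of 12003 genes were, and 2.42% higher in muscle), below the B-like level over the class as a whole. Its levels were uneven, however: the 48 lung cells of endothelial cluster C20 had 935.8 CPM from 44 UMIs, and in lung fibroblast-like cells 1 cell held 60 of the 107 UMIs. The part of free RNA in these 2 Ccl6 values was not tested. The 10 dissociation stress genes, among them Fos, Jun and Hspa1a, had a median log2 ratio of 2.08 in endothelial-like cells, where 6 were called higher in muscle, and 1.15 in fibroblast-like cells, where 2 were. Their part in the chemokine values was not tested.

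The 10 early genes induced by NF-kB, a signalling route shared by many chemokine genes, had a median log2 ratio of -0.82 in neutrophil-like, -0.36 in monocyte-like and 0.39 in macrophage-like cells, beside a median over all tested genes of 0.00, 0.00 and -0.04. None was called apart in these classes. Within neutrophil cluster C1 their median was -1.20 and 2 were called higher in lung, Cxcl2 (5220 CPM in muscle and 27208 CPM in lung) and Ptgs2 (461.7 and 2102 CPM), on the same side as Ccl3 and Ccl4 there. Within P6 1 of them was called higher in lung. The 10 stress genes had -0.48, 0.45 and 0.11, and 2 of them were called higher in lung in neutrophil-like cells. Of 8 measured genes induced by interleukin-4, a cytokine that also induces eotaxins, 2 were called higher in lung and 1 higher in muscle in monocyte-like cells, 3 and 1 in macrophage-like cells, and 1 and 0 in neutrophil-like cells.

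Cells with Ccl3 carried Ccl4 more often than cells without it. In lung neutrophil-like cells 46.9% [44.4, 49.4] of the 1587 cells with Ccl3 also had Ccl4, against 15.8% of the cells without. Conversely 82.1% of cells with Ccl4 had Ccl3, against 49.4%. Deeper cells show more of every gene, so each cell was also thinned to 1000 UMIs, which gave 41.5% [38.7, 44.3] against 15.04%. Within C6 the figures were 50.8% against 25%, and 46.1% against 31.3% when thinned. Lung monocyte-like cells had 53.2% against 18.3%. The pairing was not confined to these classes. Thinned lung B-like cells with Ccl3 had Ccl4 in 13.9% [4.67, 29.5] of 36, against 3.20% [1.94, 4.95] without. Thinned lung T-like cells had 22.0% [11.5, 36.0] of 50 against 4.83% [3.30, 6.78].

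Ccl2 and Ccl7 were also found in the same cells. In lung monocyte-like cells 82.5% [74.2, 88.9] of the 114 cells with Ccl7 also had Ccl2, against 20.2% of those without. After thinning this was 78.4% [64.7, 88.7] against 11.1%. In lung macrophage-like cells 76.0% [66.4, 84.0] of 100 cells had both, against 19.8%, and 51.9% against 15% after thinning. Ccl12 joined them: 72.8% of Ccl12 cells of the lung monocyte-like class had Ccl2, against 22.2%. Ccl8 and Ccl2 were not tied in the same way, since 46.0% [35.2, 57.0] of lung macrophage-like cells with Ccl8 had Ccl2, against 38.3% [31.2, 45.9] without, and within P6 59.6% against 60.4%.

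**Figure D5:**
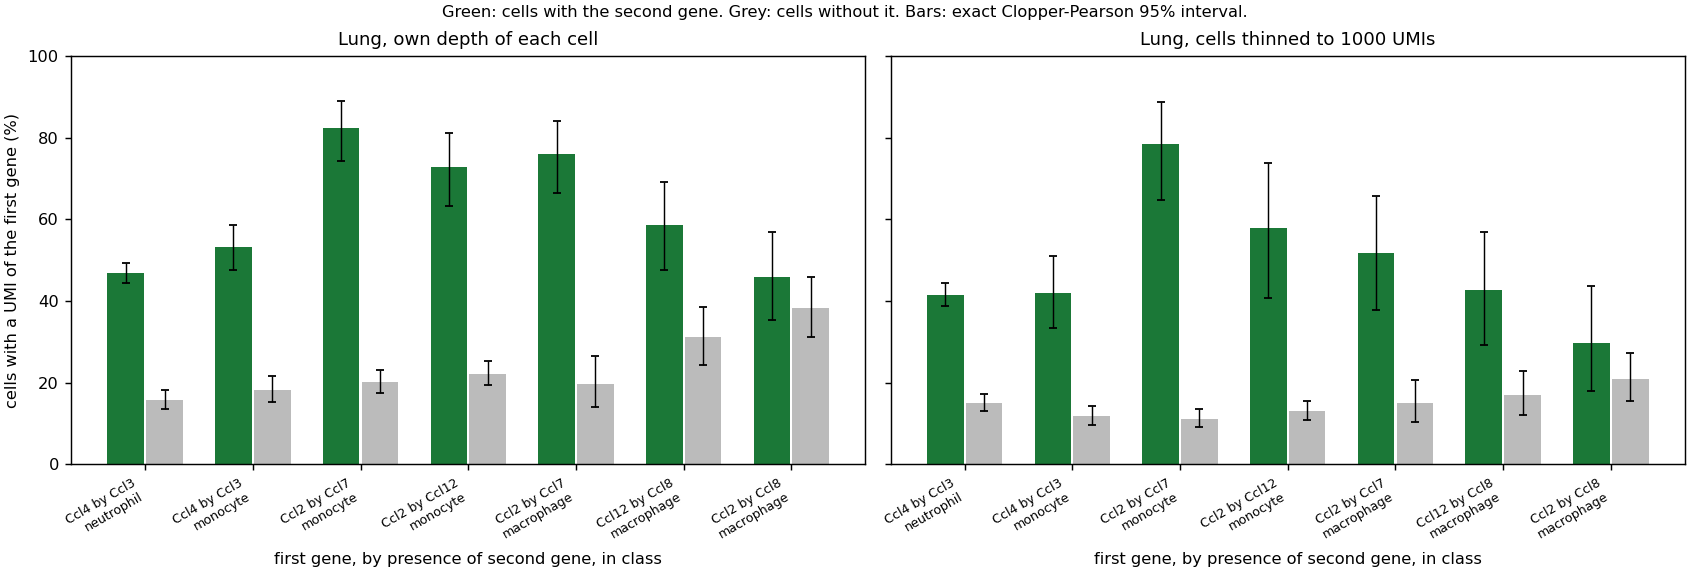
Share of lung cells with a UMI of the first chemokine, among cells with (green) and without (grey) the second, for 7 pairs and classes, at each cell's own depth (left) and after thinning to 1000 UMIs (right), with exact Clopper-Pearson 95% intervals. Ccl2 by Ccl7 in monocyte-like cells shows the widest gap (82.5% against 20.2%), and Ccl2 by Ccl8 in macrophage-like cells the narrowest (46.0% against 38.3%).

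Some cells held most of the family at once. In lung P6 the median cell had 5 of the 10 members, 65.7% had 5 or more, and the highest had 9. In P10 48.9% had 5 or more, in P1 19.4%, and in lung neutrophil-like cells 1.03%. Muscle P6 cells had a median of 3 members and 22.0% had 5 or more. At 1000 UMIs the shares were 28.8% for lung P6, 21.6% for P10, 2.59% for lung P1 and 10.2% for muscle P6. Of B-like cells 0.140% had 5 or more.

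Among receptors of these ligands, Ccr1 was highest in neutrophil-like cells of both libraries (811.9 CPM in muscle and 749.3 CPM in lung). In lung these cells also had the most Ccl3, whereas in muscle their Ccl3 interval overlapped that of macrophage-like cells. By UMIs, DC2-like cells held 47.2% of muscle Ccl3, macrophage-like cells 26.5% and neutrophil-like cells 14.4%. Ccr2 was at 504.1 CPM in muscle DC2-like and 301.0 CPM in lung monocyte-like cells, and by subset at 574.9 CPM in lung P1 and 132.5 CPM in lung P6. Ccr3 was at 5.30 CPM or less in every class of at least 20 cells, and Ccr8 was seen at 96.5 CPM in lung T-like cells. Ackr1, a scavenging receptor of venules, reached 166.4 CPM in endothelial-like cells of muscle and 10.6 CPM in those of lung, and Ackr2, another scavenger, was at 31.8 CPM in muscle fibroblast-like cells. Ccrl2, a nonsignalling relative of these receptors, was at 1605 CPM in lung and 646.7 CPM in muscle neutrophil-like cells.

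A list of 9 other CC chemokines was set beside the members. Ccl5 was at 6335 CPM in lung NK-like cells and Ccl21a at 203.1 CPM in muscle endothelial-like cells. In the 207 lung migratory dendritic-like cells Ccl17 was at 1914 CPM and Ccl22 at 927.9 CPM. That class was mixed. Over both libraries 58 of its cells fell in P11, which matched plasmacytoid dendritic markers best. Another 58 fell in P14, which matched the markers of conventional DC1. The 936 lung classical monocyte-like cells followed, with 1490 CPM of Ccl17 and 59.5 CPM of Ccl22. Ccl1 was at 282.3 CPM in lung T-like cells. Ccl19 was at 91.7 CPM in muscle pericyte-like or smooth muscle-like cells. Ccl20, Ccl25 and Ccl28 were at 28.9 CPM or less in every class.

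The genes whose levels were most like a member's over the 33 units are given with Pearson r, which is a description because the units share libraries and depth. For Ccl3 they were Il1rn (0.96), Ccl4 (0.95) and Cxcl2 (0.95), the interleukin-1 receptor antagonist and a neutrophil chemokine. For Ccl4 they were Ccl3, Lilr4b (0.94) and Cyp4f18 (0.93). For Ccl6 they were Wfdc17 (0.97), Fcer1g (0.96) and Tyrobp (0.96), the latter 2 being adaptors of myeloid receptors. For Ccl9 they were Ear2 (0.96), C1qb (0.94) and Lyz2 (0.94). Ccl2 and Ccl7 were each other's closest gene (0.87), followed by Syn1 (0.80) for Ccl2 and Fcna (0.85) for Ccl7. Ccl12 was most like Fcna (0.90), Ms4a7 (0.90) and St18 (0.87), and Ccl24 most like the complement genes C1qa (0.89), C1qb (0.88) and C1qc (0.87). Ccl11 was most like Pla2r1 (0.92), Vegfd (0.92) and C1s1 (0.90).

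In RefSeq gene order on assembly GRCm38 the members lie in 2 runs on chromosome 11, with Ccl24 on chromosome 5. The first run is Ccl2, Ccl7, Ccl11, Ccl12 and Ccl8, and the second is Ccl9, Ccl6, Ccl3, Ccl4 and then Wfdc17. Ccl2 and Ccl7, Ccl12 and Ccl8, Ccl9 and Ccl6, and Ccl3 and Ccl4 are next neighbours. Neighbours did not always peak in the same class. Ccl11 lies between Ccl7 and Ccl12 but was found mainly in fibroblast-like cells. It was not detected in the lung macrophage-like cells that led for both neighbours. Ccl6 and Ccl3 are neighbours with lung peaks in alveolar macrophage-like and neutrophil-like cells, though their r over the 33 units was 0.86. The part of gene order in these levels was not tested.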

How the data were processed

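The deposited matrices hold raw counts of unique molecular identifiers per gene and barcode for 1 muscle and 1 lung library, which the authors obtained with Cell Ranger 7.0.1. The submitters' processing notes name GRCm39 as the build. Barcodes were kept from 200 genes upward when the 37 mitochondrial genes gave no more than 10% of the UMIs, and likely doublets were removed by comparison with simulated doublets (0.8% per 1000 barcodes). Both libraries were clustered together (2000 variable genes without those starting with Ccl, 30 principal components, 15 neighbours, leidenalg 0.10.2, resolution 1) into 29 clusters, each named from marker lists. A rule for clusters that matched 2 lists and the second clustering of phagocytes were chosen after the data were seen. Python 3.11.15, numpy 2.4.6 and scipy 1.17.1 were used, with edgeR 4.0.16 for an alternative scaling, and the clustering and the call by size were checked on simulated data.

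CPM carry exact Poisson intervals, shares of cells exact Clopper-Pearson intervals, and ratios exact conditional binomial intervals, all at 95%. They cover counting error only. Ratios were computed for all genes with at least 10 counts. A call by size needed a ratio of 4, an interval excluding 2 and 30 counts. The named genes were all 10 members, the 3 genes most like each, and the leading genes of each subset. Members and lists were chosen with earlier results of these data known. Other settings tried were the mitochondrial limit, the minimum of genes or UMIs, doublet removal, clustering, totals and call limits. Promoter sequences and gene order are from RefSeq on GRCm38.p6, a different build from that of the counts. Values of some genes of the receptor and likeness lists are not reported here.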

Additional observations from a re-analysis of the deposited data

Results flagged for a closer look

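Barcodes over the mitochondrial limit, which no comparison uses, still held chemokine UMIs above the limit that a count of 0 allows. In the 3301 muscle barcodes Ccl6 was at 63.2 CPM, Ccl9 at 16.95, Ccl4 at 16.5, Ccl11 at 16.3, Ccl3 at 15.3, Ccl2 at 10.6, Ccl24 at 4.66 and Ccl7 at 2.12 CPM. In the 273 lung barcodes Ccl6 was at 655.1 CPM, Ccl3 at 243.6, Ccl4 at 126.7, Ccl9 at 102.0, Ccl8 at 87.2, Ccl2 at 14.8, Ccl24 at 11.5 and Ccl7 at 8.23 CPM.

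Some members lay on opposite sides between cell types when muscle was set over lung, and these differences between cell types were not tested. The log2 ratio of Ccl4 was 0.51 in monocyte-like cells, -2.33 in endothelial-like cells and -3.29 in neutrophil-like cells. The endothelial-like ratio rests on 12 muscle and 6 lung UMIs. Its lung value of 15.9 CPM lay below the Ccl4 level of lung B-like cells. Among the phagocyte subsets Ccl4 was at 1.07 in P1, 2.47 in P4 and -0.69 in P6. Ccl2 was at 1.05 in P4 and -0.46 in P6, and Ccl7 at 1.84 in P4 and -1.87 in P6. Ccl6 was at -1.22 in P1, 0.82 in P4 and -1.25 in P6. Ccl9 was at -1.06 in P1, 0.73 in P4 and -1.47 in P6. Ccl24 was at -2.56 in P1, 2.55 in P4 and -1.08 in P6. The P4 ratios set unlike cells side by side, since its 36 lung cells were mainly monocyte-like. In P4 the lung side of Ccl7 was 5 UMIs and that of Ccl24 was 2 UMIs.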

How the results depend on the processing

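No paired analysis was possible because each tissue had 1 library. The top class of lung Ccl3, Ccl4, Ccl8 and Ccl12 and of muscle Ccl8 and Ccl11 was the same in 14 of 14 settings, but that of lung Ccl2 and Ccl24 in 7 of 14. Where a value moved, the cause was not tested. The top class of all 10 members was matched for 6 in muscle with a 5% mitochondrial limit and for 5 with Ccl genes among the variable genes, and for 6 in lung with the doublet rate doubled or resolution 0.5. Ccl3 in lung neutrophil-like cells (3314 CPM) was 2684 with a 20% limit, 3366 without doublet removal, 2338 with the rate doubled, 3369 in cells of at least 1000 UMIs and 3619 with totals without mitochondrial genes and Rn18s. Their share of Ccl3 UMIs (84.2%) was 85.1% with the 5% limit, 57.8% with 20%, 75.5% without doublet removal, 52.6% with the rate doubled, 84.8% with resolution 2.0 or 30 neighbours, 85.2% with Ccl genes and 85.0% without shared barcodes. Ccl11 in muscle fibroblast-like cells (967.5 CPM) was 1283 with the 5% limit, 1245 with 20%, 896.6 without doublet removal, 1222 with the rate doubled, 1317 with resolution 0.5 or without the rule for 2 matching lists, 1310 with 30 neighbours, 1108 with each library clustered alone and 1053 with the reduced totals. Fibroblast-like cells held 82.7% of Ccl11 UMIs (80.5%) with the 5% limit.

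Ccl4 among lung neutrophil-like cells with Ccl3 (46.9%) was 43.3% with the rate doubled, 40.3% when positive from 2 UMIs and 41.5% when thinned. Ccl7 among cells with Ccl2 was 36.2% in monocyte-like cells, 26.6% at 1000 UMIs or more and 29.6% thinned. In macrophage-like cells it was 69.7%, and 45.1% with the 5% limit, 47.1% with 500 genes, 91.8% with the rate doubled, 44.1% with resolution 0.5, 53.7% with 2.0, 46.3% with Ccl genes, 58.9% alone and 48.3% thinned. Over 5 classes 9 ratios were called higher in lung, where 1.07% to 1.94% of all tested genes were called by class. They include Ccl6 in fibroblast-like and endothelial-like cells, which lay near or below the B-like level. With a minimum of 10 counts the number was 14, and no share over all genes was computed for that limit. The 1 called higher in muscle (0.125% to 4.76% of all tested genes) fell to 0 with the 5% limit or the rate doubled. There 3 classes could be compared. With each library clustered alone 3 ratios changed side: Ccl2 in fibroblast-like cells to 0.39, Ccl7 in macrophage-like cells to 0.83 and Ccl12 there to 0.24.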
